A study of Mus musculus with 28 samples.

Results

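Keratin genes of simple and stratified epithelium were followed in mouse embryonic stem (ES) cells depleted of FACT, a histone chaperone made of SSRP1 and SUPT16. The members were taken by gene symbol and joined by gene identifier, and are *Krt8*, *Krt18*, *Krt19*, *Krt7*, *Krt17*, *Krt42*, *Krt5*, *Krt14*, *Krt15*, and *Krt10*, 10 of the 51 keratin genes among the 27179 genes of the chromatin RNA table. Of the 10, 9 have a value per library among the 15384 genes of the RNA-seq file, while *Krt5* has none. E14 ES cells were transfected with a scramble control vector or with 2 shRNA vectors against *Ssrp1* used together, and from 48 h after transfection all cells were selected with puromycin (2 μg/ml) for 24 h. Values per library come from 4 control and 4 *Ssrp1* KD libraries to which spike-in RNA was added. The methods call the replicates biological but do not say for these libraries whether each was a separate transfection, so p-values measure the spread between the libraries. The libraries are of bulk RNA after ribosomal depletion, and fewer cells of a type and less RNA per cell cannot be told apart. SSRP1 and SUPT16 peaks and 2 libraries of chromatin-bound RNA, all from E14 cells, were also used.

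Keratins are the intermediate filament proteins of epithelial cells. They assemble as obligate pairs of a type I chain (here *Krt18*, *Krt19*, *Krt17*, *Krt42*, *Krt14*, *Krt15*, and *Krt10*) and a type II chain (*Krt8*, *Krt7*, and *Krt5*), so that each epithelium has its own pairs. *Krt8* and *Krt18* form the pair of simple epithelia and are the first keratins of the embryo, where they mark trophectoderm, while *Krt5* and *Krt14* form the pair of the basal layer of the epidermis. Type I genes other than *Krt18* lie in a cluster on chromosome 11 and type II genes, together with *Krt18*, in a cluster on chromosome 15.

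The promoter letters of 3 members and 2 SSRP1 peaks are shown for members the results turn on. They are the pair of simple epithelium, the member that rose most, and SSRP1 peaks in or next to members. Promoters run from 250 bases before to 50 after the start site in RefSeq (GRCm38.p6) and are printed along the gene's own strand. Peaks are printed along the plus strand of GRCm38, the assembly that mm10 names. Capitals mark matches to TATAAA, GCCNNNGGC, or GGGCGG on either strand, and the printed coordinates include both ends.
*Krt8* promoter, chr15:102004293-102004592, minus strand: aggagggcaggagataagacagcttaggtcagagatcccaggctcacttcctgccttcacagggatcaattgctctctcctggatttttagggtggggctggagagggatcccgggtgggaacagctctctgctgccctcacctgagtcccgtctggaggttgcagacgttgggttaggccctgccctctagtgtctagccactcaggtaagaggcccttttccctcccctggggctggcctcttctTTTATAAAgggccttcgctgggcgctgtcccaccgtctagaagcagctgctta
*Krt18* promoter, chr15:102027966-102028265, plus strand: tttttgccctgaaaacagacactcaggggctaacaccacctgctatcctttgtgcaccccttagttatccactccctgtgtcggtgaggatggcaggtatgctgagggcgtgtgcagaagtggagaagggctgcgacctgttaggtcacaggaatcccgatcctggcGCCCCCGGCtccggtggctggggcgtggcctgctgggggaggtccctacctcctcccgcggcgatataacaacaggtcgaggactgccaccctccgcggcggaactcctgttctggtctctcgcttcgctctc
*Krt42* promoter, chr11:100269902-100270201, minus strand: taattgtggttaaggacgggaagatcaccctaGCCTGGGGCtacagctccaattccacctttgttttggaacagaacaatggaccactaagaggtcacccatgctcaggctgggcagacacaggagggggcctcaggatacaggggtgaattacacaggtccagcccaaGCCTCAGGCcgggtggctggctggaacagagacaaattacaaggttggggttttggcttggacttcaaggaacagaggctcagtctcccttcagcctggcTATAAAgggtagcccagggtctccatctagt
SSRP1 peak in *Krt10*, chr11:99385917-99386210: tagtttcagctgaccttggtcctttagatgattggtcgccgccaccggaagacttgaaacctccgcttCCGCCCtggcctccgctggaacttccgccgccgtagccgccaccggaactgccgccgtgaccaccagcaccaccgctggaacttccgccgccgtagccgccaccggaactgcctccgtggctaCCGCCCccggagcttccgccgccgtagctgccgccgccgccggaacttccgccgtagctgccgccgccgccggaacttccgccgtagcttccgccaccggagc
SSRP1 peak between *Krt17* and *Krt42*, chr11:100262233-100262526: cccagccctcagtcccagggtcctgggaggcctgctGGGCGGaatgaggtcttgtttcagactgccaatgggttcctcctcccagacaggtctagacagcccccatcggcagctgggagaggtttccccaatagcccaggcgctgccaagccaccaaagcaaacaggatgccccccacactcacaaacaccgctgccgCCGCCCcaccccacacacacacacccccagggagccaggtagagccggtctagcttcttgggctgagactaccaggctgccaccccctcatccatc

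Promoter windows were at hand for 7 members, *Krt8*, *Krt18*, *Krt7*, *Krt42*, *Krt5*, *Krt14*, and *Krt10*. *Krt19*, *Krt17*, and *Krt15* had none. The letters TATAAA, the core of a TATA box, were found in the windows of *Krt8*, *Krt42*, and *Krt10*, and in 13.6% of all 32851 promoter windows. In *Krt8* 2 overlapping matches of opposite strand lie across the RefSeq start. The *Krt42* window is placed on a start 80 bases upstream of the one in the count table, and its TATAAA lies 20 to 25 bases into the transcript of the former. GCCNNNGGC, bound by AP-2 factors (*Tfap2a*, *Tfap2c*), occurred in *Krt18*, *Krt42*, and *Krt7*, against 16.6% of all windows. GGGCGG, bound by Sp1, occurred only in *Krt7* among the 7 (35.7% of all windows), where 1 match overlaps GCCNNNGGC. CACCC, bound by Krüppel-like factors and left in lower case, occurred in all 7 (57.5% of all windows). The AP-1 letters TGANTCA occurred in none (7.81% of all windows). The *Krt14* window lies 1480 bases from the start in the count table. These matches are a description of the letters.

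*Krt14* and *Krt15*, keratins of the basal epidermis, fell to near the limit of counting in the KD libraries, and *Krt10*, a keratin of the suprabasal epidermis, fell less. *Krt42* rose, and *Krt17*, a keratin of hair follicles and of injured epidermis, was higher in all KD libraries without passing the fold threshold. *Krt8*, *Krt18*, *Krt19*, and *Krt7*, the keratins of simple epithelia, held the highest levels in both groups and were lower in KD by library size. With the spike-in scaling their fold changes were positive, but none was called and the groups overlapped. Values are the authors' counts, given as scaled to library size. A call needed a log2 fold change beyond 1 in either direction together with a Benjamini-Hochberg p under 0.01 over all 15384 genes (limma, on log2(value + 0.5)). By this rule 3 of the 9 measured members fell, against 20.6% of all genes, and 1 rose, against 8.07% of all genes. The control and KD groups did not overlap for any of the 9: 7 were lower in every KD library (37.5% of all genes) and 2 higher in every KD library (35.8% of all genes). By adjusted p alone 7 were lower (37.3% of all genes) and 2 higher (35.4%). On the recovered reads edgeR called 3 lower and 1 higher (22.4% and 8.24% of all genes) and DESeq2 also 3 and 1 (21.9% and 9.09%). Scaled to spike-in RNA 2 were called lower and 2 higher (7.03% and 48.1%), after quantile normalisation 5 and 2 (10.8% and 9.87%), and with equal library totals 6 and 1 (30.5% and 2.23%). The median log2 fold change was -0.69 over the 9 members and -0.03 over all genes.

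**Figure D1:**
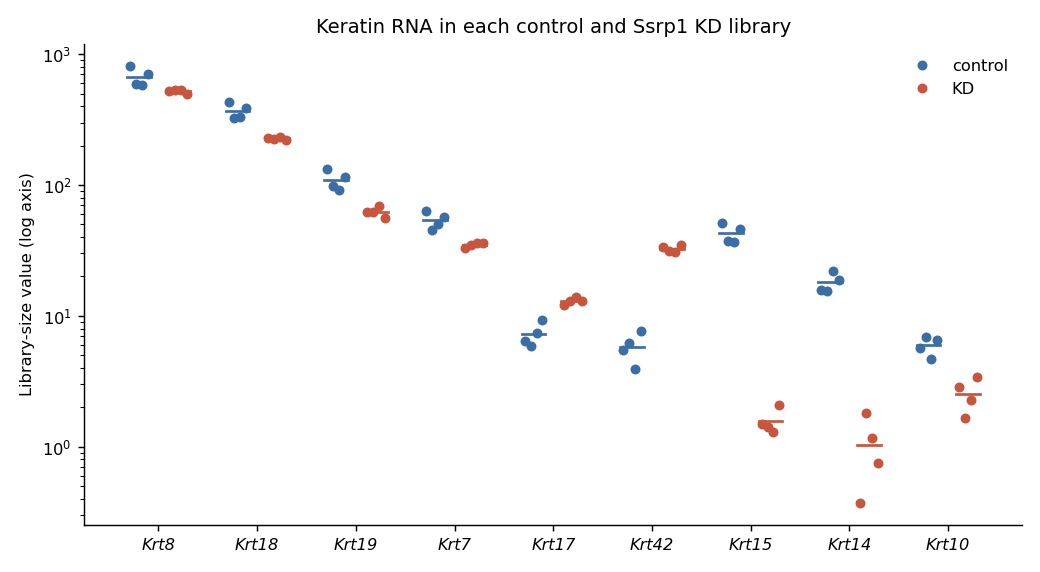
Library-size value (log axis) of 9 keratins in each of the 4 control and 4 KD libraries; points are libraries and short lines group means. No control point lies within the range of the KD points for any gene, *Krt42* moves from 3.95 to 7.66 up to 30.6 to 34.8, and *Krt14* and *Krt15* fall to 2.09 or below.

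The targeted gene *Ssrp1* was at 222.6 to 260.7 in the control libraries and 24.1 to 28.9 in KD, a log2 fold change of -3.15. Recovered reads per library were 4602278 to 6680919 in control and 9433193 to 19856032 in KD, so low values carry more counting error in control. The sum of the library-size values was 825584 to 909417 in control and 1137290 to 1182580 in KD, so the values are not CPM. Over all genes 1242 rose and 3163 fell, and with TMM scaling of the recovered reads 1239 rose and 3171 fell. The library-size values thus lie close to TMM scaling, and equal library totals are the plain scaling to library size. The split was 7394 to 1082 with the spike-in scaling, 1518 to 1656 after quantile normalisation, and 343 to 4696 when reads were scaled to equal library totals. The median log2 fold change of all genes was then 0.95, 0.05, and -0.45.

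*Krt8*, the type II chain of simple epithelium (chromosome 15, 101996711 to 102004342), stood at 814.4, 594.5, 580.1, and 711.5 in the control libraries, in replicate order, and at 519.8, 536.5, 535.6, and 497.9 in the KD libraries. Every KD library was below every control library, and the control libraries were the more spread. The mean was 675 ± 110 in control and 522 ± 18.1 in KD (SD, n = 4 each), with a log2 fold change of -0.36 (SE 0.077, limma adjusted p = 1.49e-04), short of the fold threshold. Its partner *Krt18* (chromosome 15, 102028216 to 102032026) had 432.5, 323.4, 331.1, and 385 in control and 229.1, 225.4, 231.8, and 220.6 in KD. Every KD library was below every control library. The log2 fold change of *Krt18* was -0.69 (SE 0.069, limma adjusted p = 8.23e-10). An antisense gene without a symbol overlaps *Krt18*, and 37.2% of the 50-base windows in *Krt18* exons are shared with its exons. The library kit keeps strand but the counting is not stated to use it, so reads of the pair cannot be told apart.

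The other keratins of simple epithelia were lower as well. *Krt19*, a type I chain without the usual tail domain that marks trophoblast and ductal epithelium, had 131.5, 97.58, 91.67, and 114.7 in control and 62.04, 62.73, 69.55, and 55.83 in KD. Its log2 fold change was -0.78 (SE 0.086, limma adjusted p = 3.71e-09). *Krt7*, a type II chain of ducts and trophoblast, had 63.84, 45.09, 50.05, and 56.76 in control and 32.75, 34.76, 35.87, and 35.77 in KD. Its log2 fold change was -0.61 (SE 0.087, limma adjusted p = 3.63e-07). In both genes all KD libraries lay below all control libraries, and both stayed short of the fold threshold. The sign of the fold change of these 4 simple keratins depended on the scaling. With the spike-in scaling the log2 fold changes were 0.67 (*Krt8*), 0.34 (*Krt18*), 0.23 (*Krt19*), and 0.40 (*Krt7*), each below the median of 0.95 over all genes. None was called (limma adjusted p = 0.0294, 0.285, 0.461, and 0.198), so a rise with this scaling was not shown. The spike-in values of *Krt8* were 547.3, 355.7, 389, and 636.8 in control and 478.6, 993.7, 865.2, and 748.9 in KD, so that KD replicate 1 fell among the control libraries. The groups also overlapped for *Krt18*, *Krt19*, and *Krt7* with this scaling. Scaled to equal library totals, *Krt18*, *Krt19*, and *Krt7* were called lower (-1.12, -1.21, and -1.04), and after quantile normalisation *Krt8*, *Krt18*, and *Krt19* were (-1.12, -1.27, and -1.12).

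**Figure D2:**
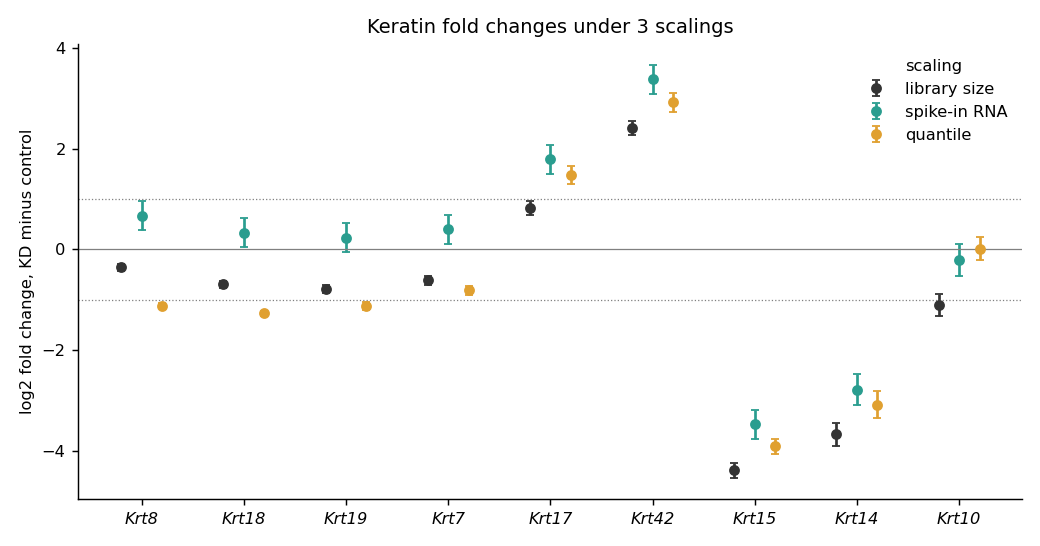
log2 fold change (KD minus control, points, with SE as bars) of 9 keratins under 3 scalings; the dotted lines are the fold threshold. *Krt42* lies above and *Krt15* and *Krt14* below the threshold under each, while *Krt8*, *Krt18*, *Krt19*, and *Krt7* lie above 0 with spike-in RNA only.

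*Krt15*, a type I chain of basal keratinocytes and follicle stem cells (chromosome 11, 100131759 to 100135949), showed the largest fall of the members. Its values were 51.45, 37.52, 36.59, and 46.23 in control and 1.483, 1.407, 1.295, and 2.087 in KD, from 204 to 378 reads in a control library and 12 to 36 in a KD library. All KD libraries were far below all controls although they were sequenced more deeply. The log2 fold change was -4.39 (SE 0.155, limma adjusted p = 6.13e-19), and 8 of the 15384 genes, *Krt15* included, had one this low or lower. *Krt14*, the type I partner of *Krt5* (chromosome 11, 100203162 to 100207510), had 15.79, 15.49, 21.89, and 18.87 in control and 0.3707, 1.817, 1.166, and 0.7537 in KD. KD replicate 1, the shallowest KD library, held 3 reads of it and KD replicate 2 held 31, so the KD level is known only roughly. The log2 fold change was -3.68 (SE 0.233, limma adjusted p = 6.86e-14), and 47 genes had one this low or lower. Among the 9772 genes with a control mean of 5 to 50, the range that holds *Krt14* and *Krt15*, 25.9% were called lower and the median was -0.19. *Krt14* and *Krt15* were called lower under every alternative tried, the spike-in scaling included (-2.79 and -3.48). Of the 50-base windows in *Krt14* exons 14.8% also occur in *Krt16* and 4.34% in *Krt17*, so part of its reads could be split or dropped in counting.

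*Krt10*, a type I chain of suprabasal epidermis (chromosome 11, 99385254 to 99389364), was low in every library. It had 5.717, 6.884, 4.664, and 6.565 in control and 2.842, 1.642, 2.266, and 3.421 in KD. The groups did not overlap, and the log2 fold change was -1.11 (SE 0.216, limma adjusted p = 4.22e-05). This call was marginal. It was lost without KD replicate 2 (-0.95), with a pseudocount of 2 (-0.82), with limma's treat, and with the spike-in scaling (-0.21), and after quantile normalisation the log2 fold change was 0.02. *Krt5*, the type II chain of basal epidermis (chromosome 15, 101707070 to 101712891), has no value per library. The authors' mean log2 expression of *Krt5* was 2.55 over their control and KD libraries together and 2.11 over their NPC and mESC libraries together, and for *Krt8* these means were 9.40 and 9.93.

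*Krt42*, a type I keratin expressed in the nail unit of the mouse (chromosome 11, 100262882 to 100269871), was the member that rose. Its values were 5.445, 6.196, 3.946, and 7.659 in control and 33.49, 31.19, 30.63, and 34.79 in KD. The lowest KD library was several times the highest control library. The log2 fold change was 2.42 (SE 0.142, limma adjusted p = 1.38e-14), and 26 of the 15384 genes had one this high or higher. It was called under every alternative tried, with 3.39 in the spike-in scaling and 2.01 with equal library totals. *Krt17* (chromosome 11, 100256217 to 100260989) had 6.398, 5.852, 7.355, and 9.3 in control and 12.11, 12.96, 13.92, and 12.99 in KD. Every KD library was above every control library. The log2 fold change of 0.82 (SE 0.146, limma adjusted p = 1.17e-05) was short of the fold threshold, which it passed in the spike-in scaling (1.79) and after quantile normalisation (1.48). With equal library totals the log2 fold change of *Krt17* was 0.41 and missed the p threshold as well (limma adjusted p = 0.0181), and with a length correction it was 0.61. Of the 50-base windows in *Krt17* exons 5.25% are shared with other genes, mostly *Krt14*, and 0.346% of those in *Krt42*.

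Divided by exon length, so that genes can be compared within a library, the mean control levels ran *Krt8* (374 per kb), *Krt18* (263), *Krt19* (79.2), *Krt7* (34.0), *Krt15* (25.0), *Krt14* (10.9), *Krt17* (4.78), *Krt42* (3.76), and *Krt10* (2.85). In this order *Krt7* overlapped *Krt15* between libraries, *Krt17* overlapped *Krt42*, and *Krt42* overlapped *Krt10*. In KD the order was *Krt8* (289), *Krt18* (162), *Krt19* (45.5), *Krt7* (21.9), *Krt42* (21.02), *Krt17* (8.60), *Krt10* (1.21), *Krt15* (0.912), and *Krt14* (0.619). There *Krt42* overlapped *Krt7*, *Krt10* overlapped *Krt15*, and *Krt15* overlapped *Krt14*. The first 4 places were thus the same in both groups, while *Krt42* moved from the eighth to the fifth place and *Krt15* from the fifth to the eighth. The summed level per kb of the 9 genes was 700 to 946 in control and 531 to 567 in KD. The simple keratins made up 93.7 to 94.7% of it in control and 93.5 to 94.4% in KD. The share of *Krt14*, *Krt15*, and *Krt10* was 4.88% ± 0.322 in control and 0.499% ± 0.0835 in KD (SD, n = 4 each). The share of *Krt17* and *Krt42* was 1.08% ± 0.206 in control and 5.38% ± 0.339 in KD. A share within a library does not depend on the scaling between libraries.

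**Figure D3:**
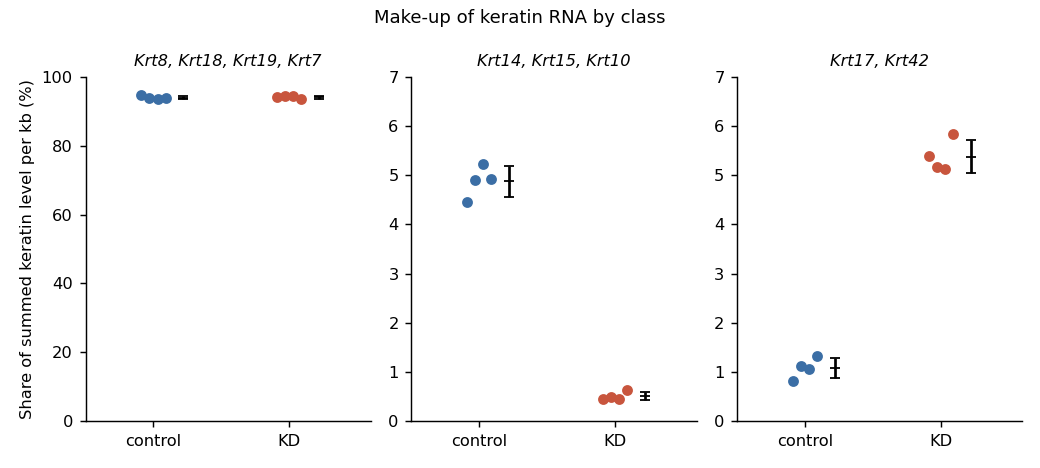
Share (%) of the summed level per kb of 9 keratins held by each class, in 4 control and 4 KD libraries; points are libraries, black marks means with SD, and the first axis runs to 100% and the others to 7%. The simple keratins stay near 94%, the stratified keratins fall from 4.46 to 5.24% to 0.445 to 0.622%, and *Krt17* with *Krt42* rise from 0.82 to 1.32% to 5.12 to 5.85%.

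Ratios of 2 keratins within a library, which depend on the scaling only through the pseudocount, were compared for 7 pairs by a two-sided exact permutation test over the libraries, in which 0.0286 is the smallest p that 4 against 4 can give. The log2 ratio of *Krt8* to its partner *Krt18* was 0.87 ± 0.044 in control and 1.20 ± 0.035 in KD (SD, n = 4 each, exact p = 0.0286, 0.0667 adjusted over the 7 pairs). It was higher in 4 of 4 KD libraries than in any control library. The ratio of *Krt14* to *Krt18* differed by -2.99 (exact p = 0.0286, adjusted 0.0667) and that of *Krt17* to *Krt42* by -1.597 (exact p = 0.0286, adjusted 0.0667), again with no overlap between the groups. The size of the former hung on the pseudocount, with -3.48 at 0.1 and -2.05 at 2. The other ratios overlapped between the groups. *Krt7* to *Krt19* differed by 0.17 (exact p = 0.0857, adjusted 0.15), *Krt19* to *Krt18* by -0.10 (exact p = 0.171), *Krt15* to *Krt14* by -0.72 (exact p = 0.143), and *Krt10* to *Krt18* by -0.42 (exact p = 0.143). Single libraries moved these 4 differences, which were 0.105 (*Krt7* to *Krt19*) and -0.058 (*Krt19* to *Krt18*) without KD replicate 4, and -0.45 (*Krt15* to *Krt14*) and -0.266 (*Krt10* to *Krt18*) without KD replicate 2. No ratio passed 0.05 after adjustment over the 7.

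The other keratins with a value were *Krt13*, *Krt16*, *Krt20*, *Krt222*, and *Krt79*, and all 5 were called lower, against 20.6% of all genes. Every gene with a value was above 1 in at least 4 libraries. *Krt13*, *Krt20*, *Krt79*, and the member *Krt14* were above 1 in all control libraries but not in all KD libraries. They thus have a value only because the control group is counted, and keratins low in both groups have none. *Krt13*, of stratified mucosa, went from 11.5 ± 1.16 to 1.05 ± 0.295 (SD, n = 4 each), a log2 fold change of -2.96. *Krt79*, of follicle ducts, had -2.18, *Krt20*, of intestinal and urothelial cells, -2.12, and *Krt16*, of injured epidermis, -1.69. *Krt222* had -1.04, a call lost without control replicate 3 (-0.84) or KD replicate 3 (-0.98), with a pseudocount of 2 (-0.71), with DESeq2 size factors (-0.99), with treat, with the spike-in scaling (-0.19), and after quantile normalisation, where it was 0.13. *Krt16* was not called with the spike-in scaling (-0.80) or after quantile normalisation (-0.57). The 10 measured keratins of chromosome 11 span 1037 kb, in which 65 genes are annotated, 27 of them keratins, and no other gene there has a value. Along this span *Krt222*, *Krt10*, *Krt20*, *Krt13*, *Krt15*, *Krt14*, and *Krt16* were called lower and *Krt19* was lower without a call. *Krt17* and *Krt42*, the only measured keratins with higher library-size values in KD, are neighbours at its end, 1892 bases apart. With the spike-in scaling the 4 simple keratins had positive fold changes too, without a call. *Krt16*, which starts 12.1 kb from the start of *Krt17*, fell.

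**Figure D4:**
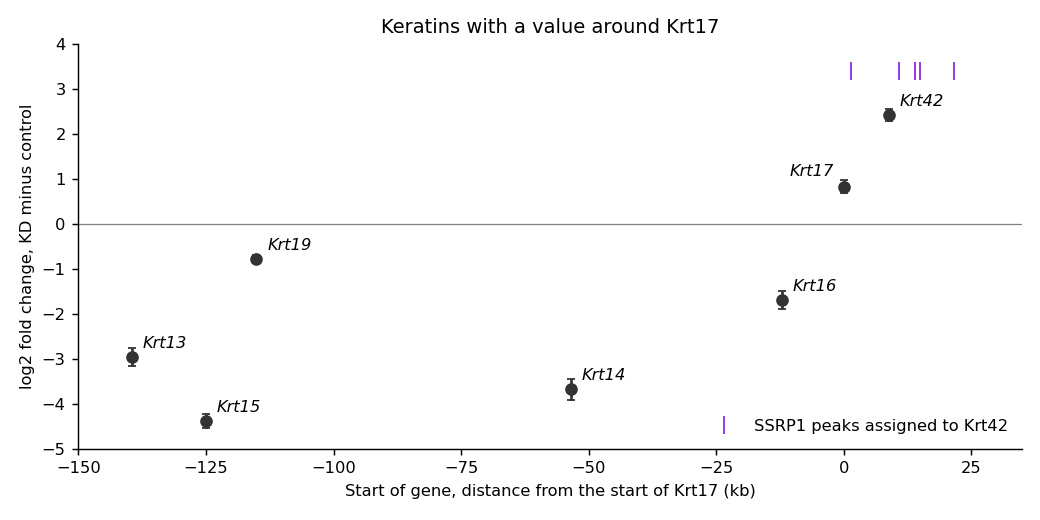
log2 fold change (KD minus control, points, with SE as bars) of the 7 measured keratins from *Krt13* to *Krt42*, by the distance of their starts from that of *Krt17* (kb); purple ticks at the top mark the 5 SSRP1 peaks assigned to *Krt42*. Values are below 0 for the 5 genes to the left, down to -4.39 for *Krt15*, and above 0 for *Krt17* and *Krt42*.

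FACT binding was read from the deposited peak lists, which were called on pooled replicates and hold no heights. No member had a peak of SSRP1 or SUPT16 within 1000 bp of its start, against 24.4% and 14.4% of the genes with an RNA-seq value. The authors assigned SSRP1 peaks to 3 of the 10 members, *Krt8*, *Krt10*, and *Krt42* (36.0% of the genes with an RNA-seq value have one), and SUPT16 peaks to none (18.6% of all genes). *Krt42* had 5 SSRP1 peaks, and 1.35% of genes had at least as many. The first, printed above, lies in the interval between *Krt17* and *Krt42*, 356 bp beyond the end of *Krt42* and 1244 bp upstream of the start of *Krt17*. The other 4 lie upstream of *Krt42*, from 1770 to 12354 bp from its start, and are 294 to 686 bp long. The *Krt10* peak (294 bp) lies in the coding sequence of the gene, 280 bp of it in exon 7 of 8 (99385931 to 99386269), with a GC content of 69.4% and 39 CpG dinucleotides. The *Krt8* peak (784 bp, from 101977135 to 101977918) lies in an intergenic interval 18793 bp beyond the end of the gene. *Krt14* and *Krt15*, which fell most, had no assigned peak. With a window of 5000 bp, 3 members had a SSRP1 peak, *Krt17*, *Krt42*, and *Krt10* (29.6% of all genes). Peaks say where the named subunit was found in cells without KD and give no change.

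Chromatin-bound RNA of E14 cells, counted raw in 2 libraries of 3441643 and 3393923 counts, held few keratin reads. *Krt42* had 5 and 4 counts, the most of any member, and *Krt10* had 1 and 3. *Krt8*, first in the control RNA-seq, had 0 in both, which allows up to 0.872 and 0.884 CPM (3 counts), and *Krt18* had 0 and 2. *Krt15* had 0 in both. *Krt19*, *Krt5*, and *Krt14* had 1 and 0, *Krt7* had 2 and 0, and *Krt17* had 0 and 1. Small nucleolar RNAs took 63.8% and 60.7% of these counts, which limits the depth for other genes. Of the 234 protein-coding genes at or above the control level of *Krt18*, 22 (9.40%) had at most 2 counts in both libraries together, and the median was 162.5. The control RNA-seq libraries were transfected and selected, and the chromatin libraries are labelled only as E14 cells.

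Genes that act with keratins were read from lists and set beside the 20.6% of all genes that fell and the 8.07% that rose. The limit given above for *Krt13* holds for these lists and for the cell type markers below. *Flg*, *Casp14*, *Gfap*, and *Sox7* had KD means of 0.774, 0.979, 0.958, and 0.769. They thus have a value only because control libraries are counted, so the filter favoured a fall for such genes. Of 19 measured genes of desmosomes and hemidesmosomes, which anchor keratin filaments to the membrane, 8 fell and 0 rose, with a median log2 fold change of -0.78. *Perp*, a tetraspan protein of desmosomes, went from 216 ± 21.5 to 62.2 ± 2.16 (SD, n = 4 each, log2 fold change -1.78). The plakins that tie keratins to these junctions also fell, *Dsp* (desmoplakin, mean 143 to 44.5), *Evpl* (envoplakin, 34.3 to 11.9), and *Plec* (plectin) with a log2 fold change of -1.46. With the spike-in scaling these 4 genes kept their direction without a call, 0 of the 19 were called lower, and 4 others were called higher, where 48.1% of all genes were. Of 10 measured genes of the cornified envelope, the cross-linked coat of dead keratinocytes, 7 fell and 0 rose (median -1.31). *Flg*, filaggrin, which bundles keratin filaments, went from 81.0 ± 15.6 to 0.774 ± 0.554 (log2 fold change -6.13). *Casp14*, which processes filaggrin, had -2.47, and the epidermal lipoxygenases *Alox12b* and *Aloxe3* had -2.15 and -1.62. With the spike-in scaling 3 of the 10 were called lower and 3 higher, and after quantile normalisation 3 and 1. For 16 of the 26 genes of this list there was no value, among them *Lor* and *Ivl*.

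**Figure D5:**
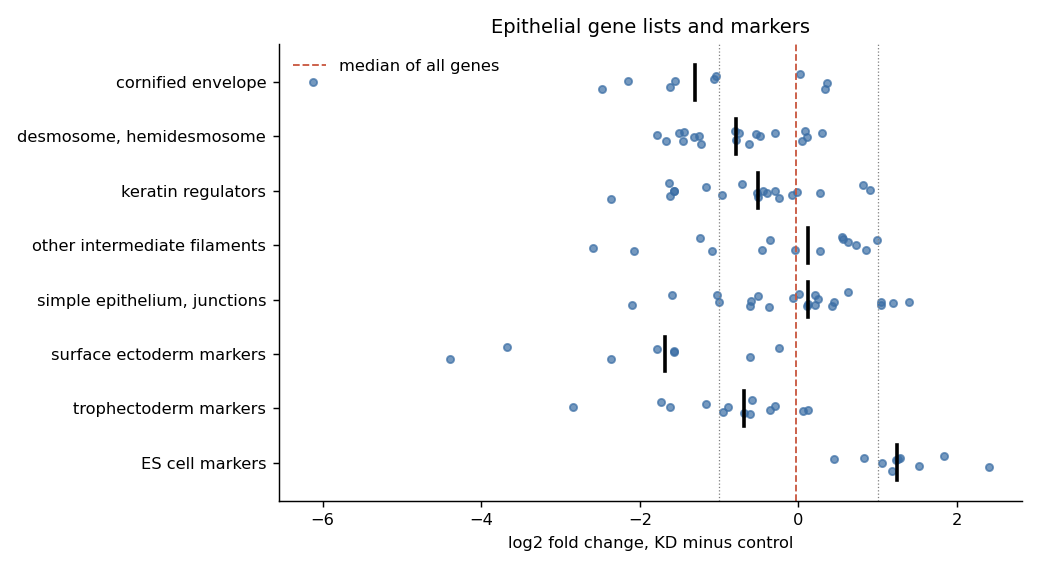
log2 fold change (KD minus control) of each measured gene (points) of 8 lists, with the list's median (black bar) and the median of all genes (dashed line); dotted lines are the fold threshold. The medians run from -1.68 for surface ectoderm markers, which include *Krt14* and *Krt15*, to 1.25 for ES cell markers.

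Among 19 measured regulators of keratin genes 6 fell and 0 rose (median -0.51). *Tfap2a*, an AP-2 factor of surface ectoderm, went from 10.0 ± 3.58 to 1.44 ± 0.130 (SD, n = 4 each, log2 fold change -2.37). *Ovol1*, of epidermal differentiation, had -1.64, *Cdx2*, which specifies trophectoderm, -1.62, and *Msx2*, a homeobox factor of ectodermal organs, -1.57. *Tfap2c* (-0.29), *Grhl2* (-0.52), *Klf5* (0.27), and *Klf4* (0.81) did not pass the fold threshold, and *Trp63*, the regulator of basal keratinocytes, has no value. With the spike-in scaling 1 regulator was called lower and 3 higher, and after quantile normalisation 1 and 0. The signs of *Tfap2c* and *Grhl2* were positive with the spike-in scaling and that of *Klf5* negative with equal library totals. Of 14 measured other intermediate filament genes 4 fell and 0 rose (median 0.12). These were *Gfap* of astrocytes (-2.59), *Synm* of muscle (-2.07), *Nefm* of neurons (-1.24), and *Sync* of muscle (-1.09). With the spike-in scaling 2 of the 14 were called lower and 7 higher, and after quantile normalisation 2 and 2. Of 22 measured genes of simple epithelium and its junctions, 4 fell and 4 rose (median 0.12). *Marveld3* (-1.59), of tight junctions, was among the former, and *Spint2* (1.40) and *Epcam* (1.19), an adhesion molecule that ES cells carry, among the latter. With equal library totals 6 of this list were called lower and 0 higher, and with the spike-in scaling 1 and 13.

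Markers of cell types that a culture of ES cells can hold were set beside the same 20.6% of all genes that fell and 8.07% that rose. Of genes with a control mean of 5 to 50, 25.9% fell, and 30.8% of the measured trophectoderm markers did. The neural markers went both ways. Of the 10 ES markers, all measured, 8 rose (*Tdgf1* 2.402, *Dppa5a* 1.84, *Fgf4* 1.53, and *Sox2* 1.28), and their summed value was 1860 to 1980 in control and 5160 to 5620 in KD. After quantile normalisation, and also with equal library totals, 3 of the 10 were called higher and 0 lower (9.87% and 2.23% of all genes were higher). With the spike-in scaling all 10 were called higher, where 48.1% of all genes were. Of 8 measured surface ectoderm markers, which include *Krt14* and *Krt15*, 6 fell, and the summed value was 376 to 422 in control and 134 to 145 in KD. Much of this sum came from *Perp* (mean 216 in control and 62.2 in KD), which the desmosome list above also holds. *Krt15* (43.0 and 1.57) and *Krt14* (18.0 and 1.03) are members, so the count and the median of this list partly restate them. Of 13 measured trophectoderm markers, which include *Krt7*, *Krt8*, and *Krt18*, 4 fell (*Gcm1* -2.85, *Hand1* -1.73, *Cdx2* -1.62, and *Gata3* -1.17, the last lost without control replicate 2, with a pseudocount of 2, with treat, with the spike-in scaling, and after quantile normalisation), with sums of 1100 to 1450 and 844 to 887. Most of the trophectoderm sums came from members, *Krt8* (mean 675 in control and 522 in KD), *Krt18* (368 and 227), and *Krt7* (53.9 and 34.8). The trophectoderm sums thus largely restate the keratins. Of 11 measured endoderm and mesoderm markers 7 fell (*Kdr* -2.67, *Sox7* -2.20, *Gata6* -1.89), with sums of 103 to 147 and 44.5 to 47.1. Of 9 measured fibroblast markers 5 fell (*Col3a1* -2.64, *Col1a1* -2.58, *Col1a2* -2.05, *Postn* -1.76), with sums of 104 to 128 and 42.4 to 50.2. Of 5 measured neural markers 2 fell (*Pax6* -1.46, *Map2* -1.22) and 1 rose (*Tubb3* 1.69), with sums of 83.7 to 107 and 145 to 155. The higher sums came from *Tubb3* (mean 33.6 in control and 108 in KD), and the median log2 fold change of the 5 was -0.96. No value was given for *Trp63* and *Krt5* of the surface ectoderm list, *Elf5*, *Tpbpa*, *Prl3d1*, and *Prl3b1* of the trophectoderm list, *Foxa2*, *T*, and *Mixl1* of the endoderm and mesoderm list, *Dcn*, *Lum*, and *Twist2* of the fibroblast list, or 7 of the 12 neural markers. With the spike-in scaling the calls lower were 3 for surface ectoderm, 1 for trophectoderm, 2 for endoderm and mesoderm, 3 for fibroblast, and 0 for neural markers. The calls higher were 1 for trophectoderm, 1 for neural markers, and 0 for surface ectoderm, endoderm and mesoderm, and fibroblast markers. Of all genes 7.03% were called lower and 48.1% higher with this scaling. After quantile normalisation the calls lower were, for these lists in the same order, 4, 3, 3, 3, and 0 (10.8% of all genes). The calls higher were then 0, 1, 0, 0, and 1 (9.87% of all genes). The part of these cell types in the keratin values was not tested.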

How the data were processed

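RNA-seq reads were aligned by the authors to mm10 with STAR, counted with featureCounts, and filtered above 1 CPM, and scaled with edgeR's TMM. The signal per library was deposited scaled to library size and to spike-ins. The methods give STAR 2.4.1b and the submitters' processing notes STAR 2.5.1b for the spike-in set. The deposited limma tables hold log2 fold changes and p-values of the authors' comparisons, which were not used, and mean log2 expression by the authors, used for *Krt5* and *Krt8*. Each count of chromatin RNA was deposited raw (STAR 2.4.1b, featureCounts). Peaks were made with Bowtie2 2.2.6 and PePr by the authors and assigned with ChIP-Enrich. SSRP1 peak starts lie on multiples of 98 bp and were taken as counted from 0, so 1 was added, and SUPT16 peaks were treated likewise. Exon usage tables and samples of other assays were not analysed here.

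Reads were recovered from the step between values (100% whole within 0.1). Replicates differed by more than sampling noise (chi-square over its degrees of freedom, 1.875 to 6.624). The test was limma 3.58.1 with a trend, run on log2 of the library-size value plus a pseudocount of 0.5. Alternatives used edgeR 4.0.16, DESeq2 1.42.0, other pseudocounts, filters and scalings, a fit with replicate number as block, and leaving out 1 library at a time. Equal library totals were added after seeing the data. On simulated data for KD against control (15384 genes, 200 changed), limma, edgeR, and DESeq2 recovered 100% with 0 false calls. The planted changes all lay beyond the fold threshold, in genes that were not low, and no other gene was changed. This checks that the tools run. It does not measure how well calls near the threshold or at few reads are made. Floors cover counting error only.

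Members and lists were chosen with earlier results of these data known. Named were all members, other keratins with a value, at most 4 called genes of each list with the largest absolute fold change, and set regulators (*Tfap2c*, *Klf5*, *Klf4*, *Trp63*, *Grhl2*, *Cdx2*). The values of 1 gene that this rule names are not reported here. Exonic windows of 50 bases were compared on both strands between annotated genes. Python 3.11.15 with pysam 0.24.0, and R 4.3.3, were used. Protein identity was not analysed here.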

Additional observations from a re-analysis of the deposited data

How the results depend on the processing

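*Krt14*, *Krt15*, and *Krt42* kept their direction and call under all 24 alternatives. Of these, adjusted p alone only drops the fold threshold and could not remove a call. TMM scaling nearly repeats the main values, and the replicate block and limma without a trend keep the main fold changes. The count of members that fell (3) was 5 after quantile normalisation, 7 by adjusted p alone, 6 with equal library totals, and 2 to 3 with 1 library left out. The count that rose (1) was 2 with the spike-in scaling, after quantile normalisation, and by adjusted p alone, and 1 whichever library was left out. The cause of these moves was not tested. Signs turned in the spike-in scaling for *Krt8* (0.67), *Krt18* (0.34), *Krt19* (0.23), *Krt7* (0.40), *Tfap2c* (0.72), and *Grhl2* (0.48), after quantile normalisation for *Krt10* (0.018) and *Krt222* (0.13), and with equal library totals for *Klf5* (-0.15). Calls over all genes, 1242 higher and 3163 lower, were 5447 and 5745 by adjusted p alone, 517 and 1580 with treat, and 1201 and 2024 for genes with a mean of at least 5. The 5 other keratins called lower were 3 with the spike-in scaling and after quantile normalisation, and 1 with that filter. Replicate numbers did not pair the libraries (correlation of deviations -0.057 to 0.0175). A replicate block left the counts over all genes at 1242 and 3163, and gave the ratios *Krt8* to *Krt18* (0.3316), *Krt14* to *Krt18* (-2.99), and *Krt17* to *Krt42* (-1.597) an exact p of 0.125, the smallest 4 pairs can give. With 1 library left out these ratios ranged from 0.311 to 0.346, from -3.224 to -2.745, and from -1.724 to -1.425 (exact p 0.0571, the smallest possible). *Krt15* to *Krt14* was -0.91 with a pseudocount of 2 (exact p = 0.0286). *Krt14* to *Krt18* moved more with the pseudocount, to -3.48 at 0.1 and -2.05 at 2, than with 1 library left out. Low control depth limits *Krt10*, *Krt17*, and *Krt42*, and KD counts of 3 to 36 reads limit *Krt14* and *Krt15*. Peaks on pooled replicates have no error.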
